A study of Mus musculus with 6 samples.

Results

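The genes described here are the chemokine receptor genes of peritoneal B-1a and B-1b cells, B-1 cells that carry CD5 and those that lack it. They were chosen by name alone, as all gene names in the deposited table that read Ccr, Cxcr, Cx3cr or Xcr followed by a number. This gave 8 of 7834 gene names (Ccr1, Ccr6, Ccr7, Ccr9, Cxcr3, Cxcr4, Cxcr5 and Cxcr6), in 10 of 13747 transcript rows. GENCODE M21 annotates 18 mouse genes with such names, and the other 10 are not analysed here. Both groups were sorted from the peritoneal cavity of untreated wild-type male C57BL/6 mice, and the sources used here do not give their age or the number of mice per library. Poly-A RNA was sequenced, and the labels give 3 replicates per group.

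Chemokine receptors are G protein-coupled receptors that steer cells along gradients of small secreted proteins, the chemokines. They signal mainly through inhibitory G proteins to calcium, phosphoinositide 3-kinases and the actin skeleton, and are switched off by receptor kinases and arrestins. In B cells, CXCR5 draws cells to CXCL13 in follicles and body cavities, CCR7 to CCL19 and CCL21 in the T cell zone, CXCR4 to CXCL12 in bone marrow and CCR6 to CCL20 at mucosal and splenic sites. The question put to these genes was which of them differ between the subsets, since the study asks what lets B-1b cells reach the spleen.

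Not all 6 columns of the table are separate measurements. Over the whole table, B-1a replicate 3 equals the mean of B-1a replicates 1 and 2 in 13710 of 13747 rows (relative tolerance 1e-06), and B-1b replicate 3 is identical to B-1b replicate 1 in 13722 rows. Both relations hold in 9 of the 10 receptor rows, so B-1a replicates 1 and 2 were compared with B-1b replicates 1 and 2. Nothing in the labels says that these came from separate animals, so p-values measure the spread between the samples, which may be technical. Values are read as FPKM, fragments scaled to transcript length and library size. No unit stands in the table, and this reading is inferred from how the values were made. They summed to 324330 to 366992 per library, and the read depth behind them is unknown. The B cell markers Cd79a (1384 to 2219 FPKM) and Ms4a1 (404 to 680 FPKM) were high in all 4 libraries. Cd5, the marker on which the subsets are told apart, was at 0.446 and 0.757 FPKM in B-1a and at 0.895 and 0.737 FPKM in B-1b, so its transcript does not separate the groups and these are named by their labels. Markers of B-1 cells (6 of 7 measured) summed to 56.3 and 64.6 FPKM in B-1a and to 97.6 and 88.0 FPKM in B-1b, and 3 of the 5 tested were higher in B-1b at an unadjusted p under 0.05 (5.39% of all genes). Markers of mast cells (6 of 8 measured) summed to 126.6 and 125.1 FPKM in B-1a and to 229.3 and 130.1 FPKM in B-1b, and all 6 had positive log2 fold changes (56.2% of all genes). Limma called 0 genes of either list (0.198% of all genes), and their part in the receptor values was not tested. The sums of 4 sparsely measured lists were also apart between the groups. For dendritic cells (2 of 8 measured) they were 3.55 and 4.51 FPKM in B-1a, against 4.70 and 5.66 FPKM in B-1b. For neutrophils (1 of 9) they were 0 and 0.182 FPKM in B-1a, against 2.43 and 0.684 FPKM in B-1b. Those of eosinophils (1 of 7), at 4.61 and 4.21 FPKM in B-1a, and of NK cells (1 of 8), at 7.87 and 7.69 FPKM in B-1a, were lower in B-1b, at 3.62 and 3.00 FPKM and at 4.67 and 5.86 FPKM. Plasma cell markers (5 of 6) overlapped, at 125.7 to 161.6 FPKM. The 7 B cell markers summed to 3771 to 4250 FPKM.

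Promoter windows from RefSeq (GRCm38.p6), running from 250 bases before to 50 after a start, were matched for 6 of the 8 genes. None was matched for Ccr7 and Cxcr5. Of the genes with log2 fold changes above 1, Ccr7 is thus missing here, and the windows of Ccr6 and Ccr1 are shown. They are printed 5' to 3' on the strand of the gene. Capitals mark the octamer ATTTGCAT, known from immunoglobulin promoters, and the loose NF-kB pattern (GGG and CC with any 5 bases between).
Ccr6 first start, chr17:8235793-8236092, plus strand: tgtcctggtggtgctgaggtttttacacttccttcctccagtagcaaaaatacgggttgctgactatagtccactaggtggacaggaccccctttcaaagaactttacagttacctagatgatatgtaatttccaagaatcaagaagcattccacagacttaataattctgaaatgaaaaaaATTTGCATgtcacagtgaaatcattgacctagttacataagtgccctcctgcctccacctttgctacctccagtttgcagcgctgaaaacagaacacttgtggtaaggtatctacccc
Ccr6 second start, chr17:8242276-8242575, plus strand: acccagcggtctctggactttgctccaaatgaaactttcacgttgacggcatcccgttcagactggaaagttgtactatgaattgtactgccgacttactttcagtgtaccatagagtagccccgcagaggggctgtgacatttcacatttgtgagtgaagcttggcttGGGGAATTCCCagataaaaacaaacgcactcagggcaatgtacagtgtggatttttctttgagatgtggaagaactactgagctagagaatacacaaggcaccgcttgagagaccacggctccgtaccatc
Ccr1, chr9:123968643-123968942, minus strand: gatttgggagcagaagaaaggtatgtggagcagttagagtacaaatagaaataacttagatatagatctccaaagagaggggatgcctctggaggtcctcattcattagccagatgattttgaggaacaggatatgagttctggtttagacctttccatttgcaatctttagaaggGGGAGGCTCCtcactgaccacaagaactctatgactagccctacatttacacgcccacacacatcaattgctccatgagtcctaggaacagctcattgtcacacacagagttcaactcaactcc

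The 2 Ccr6 starts lie 6483 bases apart, and the table has a single row for the gene, so it does not tell them apart. The window of the first start holds the octamer, 68 bases upstream of the start, as the only 1 of the 7 windows of these genes to do so. The octamer was seen in this window before it was searched for, so the match was not found by a search set beforehand. Of 32851 windows in the genome-wide table, 1.74% hold it on either strand. The window of the second Ccr6 start holds overlapping matches to the NF-kB pattern, GGGGAATTCC and GGGAATTCCC, beginning 81 and 80 bases upstream. That of Ccr1 holds GGGAGGCTCC, 74 bases upstream, and 50.8% of all windows hold a match to the pattern (those of Ccr9 and Cxcr3 do too). The PU.1 core GAGGAA was also searched, which 28.3% of all windows hold, and occurs in the Ccr1 window and, on the opposite strand, in those of the first Ccr6 start and of Cxcr3. TATAAA (13.6% of all windows) occurs among these genes only in the window of Cxcr4, 30 bases upstream. Both strands were read in each case, and a match is a run of letters, not a measured site.

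Cxcr5 was the leading receptor transcript of both subsets, and Ccr7 made up much of the remainder in B-1b. The summed FPKM of the 8 genes was 445.8 and 388.6 in B-1a and 607.9 and 605.6 in B-1b. Cxcr5 held 81.9% and 80.2% of this sum in B-1a and 55.1% and 49.8% in B-1b. The share of Ccr7 was 5.89% and 9.16% in B-1a and 33.7% and 33.2% in B-1b. The groups do not overlap for either gene. Ccr6 remained a small part of the sum, at 0.336% and 0.352% in B-1a and 1.36% and 1.43% in B-1b.

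**Figure D1:**
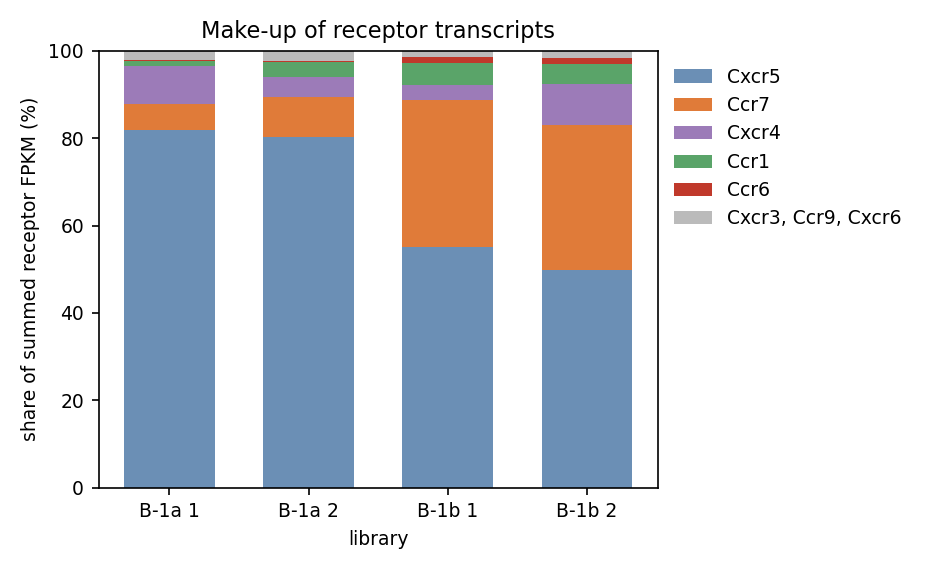
Share of each receptor gene in the summed receptor FPKM (y axis, percent) in each of the 4 libraries (x axis). Cxcr5 takes 81.9% and 80.2% in the B-1a libraries and 55.1% and 49.8% in the B-1b libraries, with Ccr7 at 33.7% and 33.2% in the latter.

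In B-1a the order of mean FPKM was Cxcr5, Ccr7, Cxcr4, Ccr1, Cxcr3, Ccr9, Ccr6 and Cxcr6. The ranges of Ccr7 and Cxcr4, of Ccr1 and Cxcr3 and of Ccr6 and Cxcr6 overlapped there, so these neighbours do not differ beyond their spread. In B-1b the order was Cxcr5, Ccr7, Cxcr4, Ccr1, Ccr6, Cxcr3, Ccr9 and Cxcr6, and only the ranges of Cxcr4 and Ccr1 overlapped. Ccr6 thus stood below Cxcr3 and Ccr9 in B-1a and above both in B-1b. Against all 7834 gene names, Ccr6 lay at the 8.54th and 7.67th percentile of FPKM in B-1a and at the 36.8th and 38.9th in B-1b. For Ccr7 the percentiles were 72.8 and 79.3 in B-1a and 97.0 and 96.4 in B-1b.

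Differences were tested with limma on log2(FPKM + 1), a scale that understates the change of low genes, across the 7557 genes that reached 1 FPKM in 2 or more libraries. All 8 receptor genes passed this filter. With Benjamini-Hochberg adjustment, limma called 0 of the 8 at a false discovery rate (FDR) below 0.05, where it called 0.198% of all genes (12 higher, or 0.159%, and 3 lower, or 0.0397%, in B-1b). At an unadjusted p under 0.05, 3 of the 8 (Ccr1, Ccr6 and Ccr7) were higher in B-1b and 0 lower, against 5.39% of all genes higher and 4.27% lower at this level. The same 3 had log2 fold changes above 1, as did 5.82% of all genes. Both B-1b libraries lay above both B-1a libraries for 4 of the 8 (these 3 and Ccr9), against 25.8% of all genes, and for 0 of the 8 below, against 17.3%. With the 10 receptor rows kept apart, limma called 0 of them (0.0494% of 12137 rows), and 3 were higher at an unadjusted p under 0.05 (5.93% of rows). The median log2 fold change of the 8 genes was 0.37, against 0.05 over all genes tested.

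**Figure D2:**
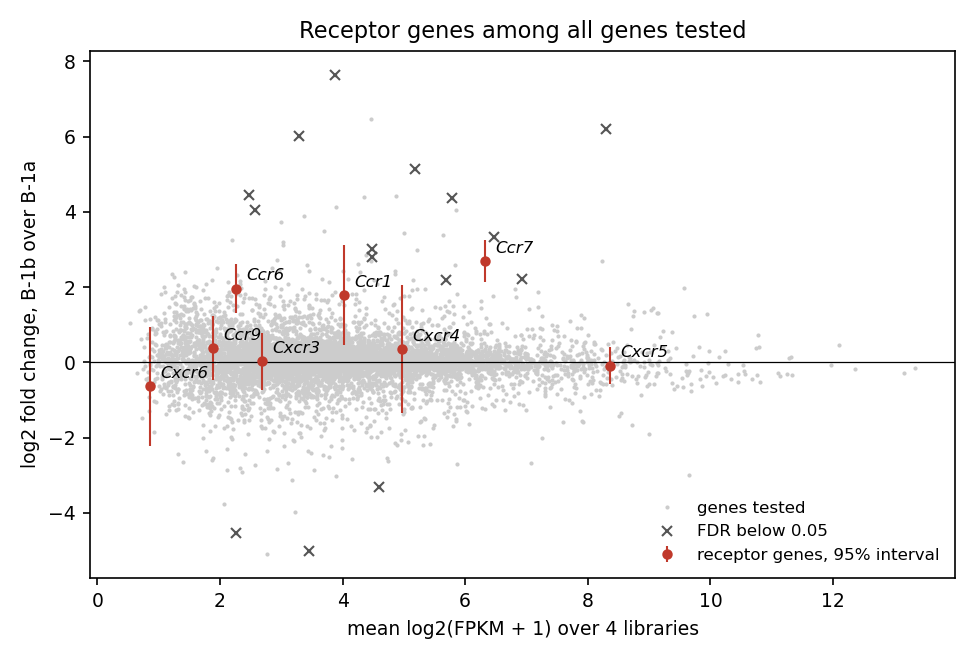
Log2 fold change, B-1b against B-1a, (y axis) against the mean log2(FPKM + 1) over 4 libraries (x axis) for 7557 genes, with the 15 genes past the FDR as crosses and the 8 receptor genes as points with their 95% interval. The intervals of Ccr1, Ccr6 and Ccr7 lie above 0 and those of the other 5 genes include it.

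Among the lymphoid homing receptors, Ccr7 showed the largest difference of the 8 genes. It lies on chromosome 11 of GRCm38 from 99144196 to 99155077 on the minus strand, with 1 coding transcript of 3 exons. It was at 26.3 and 35.6 FPKM in B-1a and at 204.6 and 200.9 FPKM in B-1b. The B-1b libraries were close to each other and the gap between the groups was 165 FPKM. The group means of 30.9 ± 6.59 and 202.7 ± 2.60 FPKM (SD, n = 2 each) give a ratio of 6.56. The log2 fold change was 2.69 (standard error 0.20, 95% interval 2.14 to 3.24, adjusted p = 0.0577 from limma), the 28th largest toward B-1b of the genes tested. It ran from 2.48 to 2.90 as each library was dropped in turn.
Ccr7 is also the 1 receptor gene whose replicates numbered 3 depart from their relation. B-1a replicate 3 was at 25.9 FPKM, 5 below the mean of replicates 1 and 2, which is the mean after 10 is taken from replicate 2. B-1b replicate 3 was at 214.6 FPKM, 10 above replicate 1. The ratio between these columns was 8.28, and it would be 6.62 had both relations held. No source used here describes such a step, and neither column entered the values above.

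Ccr6, on chromosome 17 from 8236043 to 8257141 on the plus strand, has 9 annotated transcripts, 8 of them coding, and 1 row in the table. It was at 1.498 and 1.368 FPKM in B-1a and at 8.24 and 8.64 FPKM in B-1b. The libraries of a group differed little and the groups were apart by 6.74 FPKM. The means of 1.43 ± 0.0917 and 8.44 ± 0.284 FPKM (SD, n = 2 each) give a ratio of 5.89. The log2 fold change, at 1.96 (standard error 0.24, 95% interval 1.30 to 2.61), had an adjusted p of 0.175 from limma and ranked 46th by p. It ran from 1.92 to 1.99 as each library was dropped in turn, and its replicate 3 columns keep the relation given above.

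Cxcr5, on chromosome 9 from 44511787 to 44561877 on the minus strand, did not separate the subsets. It was at 365.2 and 311.7 FPKM in B-1a and at 334.8 and 301.8 FPKM in B-1b. The ranges overlap, and Cxcr5 lay between the 97.8th and the 98.5th percentile of all genes in every library. The log2 fold change came to -0.09 (standard error 0.17, adjusted p = 0.896 from limma) with a 95% interval of -0.57 to 0.40.
Ratios within a library do not depend on the scaling between libraries. Ccr7 was at 7.19% and 11.4% of the Cxcr5 level in B-1a and at 61.1% and 66.6% in B-1b. Ccr6 was at 0.41% and 0.439% of the Cxcr5 level in B-1a and at 2.46% and 2.86% in B-1b. Neither ratio overlapped between the groups.

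**Figure D3:**
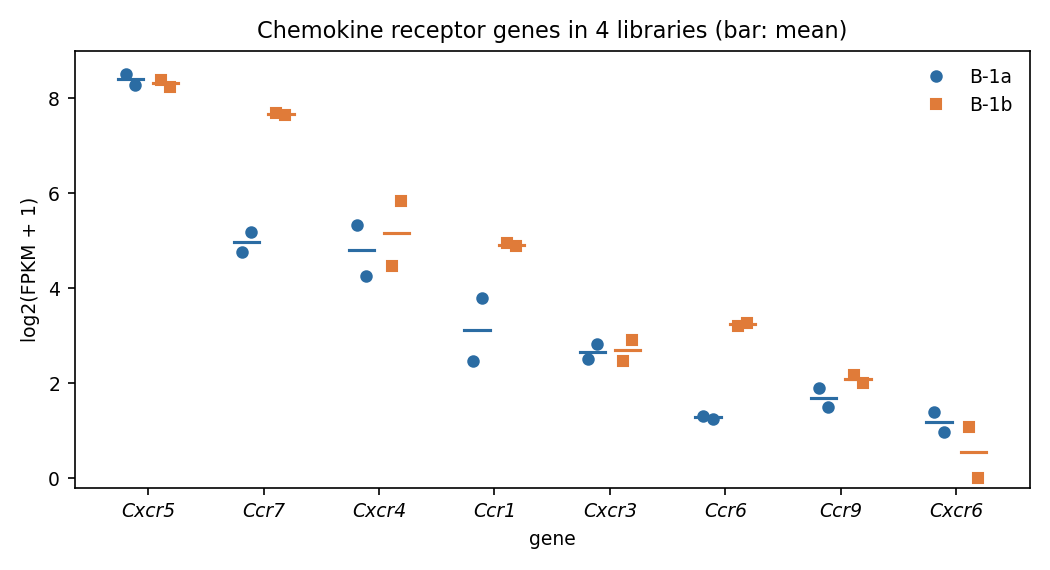
Level of each receptor gene as log2(FPKM + 1) (y axis) in 2 B-1a libraries (circles) and 2 B-1b libraries (squares), with the mean of each group as a bar. The groups are apart for Ccr7, Ccr1, Ccr6 and Ccr9 and overlap for Cxcr5, Cxcr4, Cxcr3 and Cxcr6.

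Cxcr4, the receptor for CXCL12, varied more within the groups than between them. It lies on chromosome 1 from 128588199 to 128592293 on the minus strand. It was at 39.3 and 18.2 FPKM in B-1a and at 21.2 and 56.2 FPKM in B-1b. The highest and the second lowest value both belong to B-1b. The log2 fold change came to 0.36 (standard error 0.62, 95% interval -1.36 to 2.07, adjusted p = 0.874 from limma), and it turned to -0.18 without B-1a replicate 2 and to -0.33 without B-1b replicate 2.
The table has 2 rows for Cxcr4 and does not say which annotated transcript (of 902 and 1805 bases) each stands for. The first row was at 30.5 and 14.2 FPKM in B-1a and at 11.8 and 46.7 FPKM in B-1b. The second row was at 8.78 and 3.95 FPKM in B-1a and at 9.32 and 9.44 FPKM in B-1b. The groups overlap in the first row, while in the second both B-1b libraries lie above both B-1a libraries, at an adjusted p of 0.748 from limma over 12137 rows. The first row held 77.7% and 78.3% of the gene in B-1a, and 55.9% and 83.2% in B-1b.

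Ccr1, a receptor of inflammatory chemokines such as CCL3 and CCL5 that is best known from myeloid cells, showed the third largest difference. It lies on chromosome 9 from 123962124 to 123968692 on the minus strand. It was at 4.56 and 12.8 FPKM in B-1a and at 29.9 and 28.5 FPKM in B-1b. The groups are 15.7 FPKM apart, but the B-1a libraries differ much from each other. The ratio of the means (8.69 ± 5.84 and 29.2 ± 0.982 FPKM, SD, n = 2 each) was 3.36. The log2 fold change, at 1.78 (standard error 0.48, 95% interval 0.45 to 3.12), had an adjusted p of 0.394 from limma. It was 1.13 without B-1a replicate 1 and 2.44 without B-1a replicate 2.
Markers of macrophages, cells that share the peritoneal cavity, were read beside it. Of 12 such markers, 9 were measured, 7 with positive and 2 with negative log2 fold changes. Both B-1b libraries lay above both B-1a libraries for 6 of the 9 (25.8% of all genes) and below them for 1 (17.3% of all genes). Limma called 0 (0.198% of all genes). At an unadjusted p under 0.05, 4 were higher (Adgre1, Cd68, Prg4 and Csf1r, against 5.39% of all genes) and 0 lower (4.27%). Adgre1, which encodes F4/80, was at 51.1 and 56.0 FPKM in B-1a and at 90.4 and 101.1 FPKM in B-1b. Csf1r, the receptor for the macrophage growth factor CSF1, was at 28.5 and 22.8 FPKM in B-1a and at 39.7 and 35.1 FPKM in B-1b. Timd4, a marker of resident macrophages, lay the other way, at 23.4 and 23.8 FPKM in B-1a and at 16.5 and 18.9 FPKM in B-1b. Alox15, the other marker with a negative sign, was at 234.6 and 29.7 FPKM in B-1a and at 13.8 and 158.4 FPKM in B-1b, with overlap.
The 9 markers summed to 4754 and 3441 FPKM in B-1a and to 4193 and 7251 FPKM in B-1b. Most of this is Lyz2, the lysozyme gene, and without it the sums were 409.1 and 203.8 FPKM in B-1a, against 266.2 and 427.3 FPKM in B-1b. None of the 9 was at 0 in any library. The ratio of Ccr1 to Adgre1 was 0.0893 and 0.229 in B-1a and 0.331 and 0.282 in B-1b, but this sets it beside 1 marker only. Cd14, another of the 9, was at 3.41 and 12.7 FPKM in B-1a and at 13.7 and 22.9 FPKM in B-1b. Like Ccr1, it was lowest in B-1a replicate 1. The part of these markers in the Ccr1 difference was not tested, and in bulk samples fewer cells of a type and less RNA per cell cannot be told apart.

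Ccr6 and Ccr7 are also known from follicular B-2 cells, and markers of these were read beside them. Fcer2a, which encodes CD23, was at 9.71 and 11.5 FPKM in B-1a and at 17.6 and 13.1 FPKM in B-1b. Ighd, the IgD constant region, was at 435.6 and 329.5 FPKM in B-1a and at 213.5 and 241.0 FPKM in B-1b. The first of these was thus higher in both B-1b libraries and the second lower. The 5 markers of the list summed to 893.5 and 844.6 FPKM in B-1a and to 855.4 and 743.3 FPKM in B-1b, and Cr2 was listed at 0 in 1 library of each group. The ratio of Ccr7 to Fcer2a was 2.71 and 3.09 in B-1a and 11.6 and 15.4 in B-1b. That of Ccr6 to Fcer2a was 0.154 and 0.119 in B-1a and 0.469 and 0.662 in B-1b, and both ratios were apart between the groups.

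Of the receptors named for effector lymphocytes and the gut, none was apart by more than 1 FPKM. Ccr9, the receptor for the gut chemokine CCL25, lies on chromosome 9 from 123678439 to 123784330 on the plus strand. It was at 2.71 and 1.84 FPKM in B-1a and at 3.49 and 3.01 FPKM in B-1b, with its log2 fold change at 0.39 (standard error 0.31, 95% interval -0.46 to 1.23, adjusted p = 0.714 from limma). The groups are apart by 0.306 FPKM. It has 2 rows, of which the first, at 1.04 and 1.25 FPKM in B-1a and at 1.21 and 0.914 FPKM in B-1b, overlapped. The second was at 1.67 and 0.593 FPKM in B-1a and at 2.28 and 2.10 FPKM in B-1b, so the separation of the gene is that of its second row.
Cxcr3, the receptor for the interferon-induced CXCL9, CXCL10 and CXCL11, lies on chromosome X from 101731535 to 101734269 on the minus strand. It was at 4.72 and 6.08 FPKM in B-1a and at 4.58 and 6.504 FPKM in B-1b, with overlapping ranges. The log2 fold change came to 0.02 (standard error 0.28, 95% interval -0.74 to 0.78, adjusted p = 0.987 from limma), and its sign turned under 4 of 11 other settings.
Cxcr6, the receptor for CXCL16, lies on chromosome 9 from 123806475 to 123811760 on the plus strand. It was at 1.62 and 0.969 FPKM in B-1a and at 1.13 FPKM in B-1b replicate 1, and is listed at 0 in B-1b replicate 2. Its log2 fold change, at -0.64 (standard error 0.58, adjusted p = 0.737 from limma), rests on that library, and was -0.10 without it and -1.95 with 0.1 in place of 1 as the value added before the log. T cells, which carry Cxcr3 and Cxcr6, gave 6 measured markers of 10, with summed levels of 14.1 and 15.7 FPKM in B-1a, against 12.2 and 15.9 FPKM in B-1b, which overlap.
Ccr9, Cxcr6 and Ccr1 lie within 290.3 kb of chromosome 9. Their log2 fold changes were 0.39, -0.64 and 1.78 in the order of their position, so these neighbours did not share 1 direction.

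**Figure D4:**
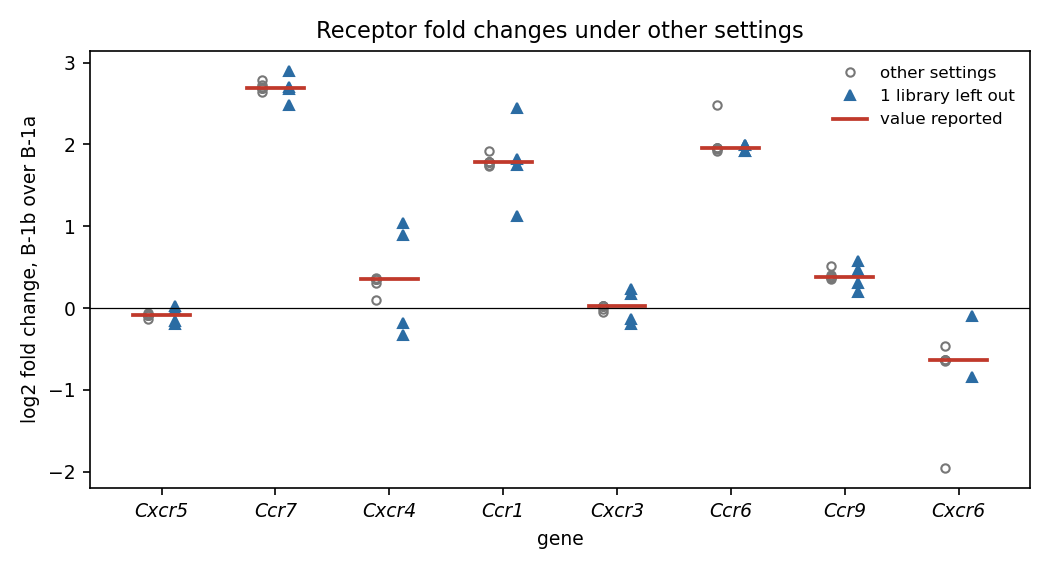
Log2 fold change, B-1b against B-1a, (y axis) for each receptor gene as reported (bar), with 1 library left out (triangles) and under the other settings (circles). Ccr7, Ccr6, Ccr1 and Ccr9 lie above 0 throughout, and Cxcr5, Cxcr4 and Cxcr3 fall on both sides of it.

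Chemokines themselves were measured at 10 of 37 listed genes, of which 9 were tested. Limma called 0 of the 9 (0.198% of all genes), with 1 (Pf4) higher (5.39% of all genes) and 0 lower (4.27%) at an unadjusted p under 0.05, and 5 of the 9 had positive log2 fold changes, against 56.2% of all genes. Cxcl13, the ligand of CXCR5, had the highest mean over the 4 libraries after Pf4, at 145.7 and 135.8 FPKM in B-1a and at 87.0 and 138.3 FPKM in B-1b. The groups overlap, and the log2 fold change came to -0.36 (standard error 0.27, adjusted p = 0.709 from limma). So transcripts of CXCR5 and of its ligand were both present in each of the 4 libraries.
Pf4, platelet factor 4, was at 135.5 and 105.8 FPKM in B-1a and at 208.7 and 271.9 FPKM in B-1b, with its log2 fold change at 0.99 and an adjusted p of 0.332 from limma. Ccl22, a ligand of CCR4, was at 0.532 and 1.68 FPKM in B-1a and at 4.10 and 2.37 FPKM in B-1b (fitted log2 fold change 1.03, adjusted p = 0.591 from limma). Ccl6 was at 18.2 and 9.58 FPKM in B-1a and at 16.7 and 108.5 FPKM in B-1b, so its log2 fold change of 1.62 (adjusted p = 0.672 from limma) rests on B-1b replicate 2. That library also held the highest Cxcr4 value and the highest sum of macrophage markers.
Among ligands of CCR1, Ccl5 was at 12.1 and 0.0775 FPKM in B-1a and at 6.23 and 4.79 FPKM in B-1b, and Ccl9 at 3.38 and 19.3 FPKM in B-1a and at 18.4 and 2.09 FPKM in B-1b. Both overlap widely. Mif, a cytokine that also binds CXCR4, was at 64.6 and 130.9 FPKM in B-1a and at 19.7 and 179.0 FPKM in B-1b, again with overlap. Cxcl16, the ligand of CXCR6, was at 1.40 and 1.37 FPKM in B-1a and at 1.71 and 2.88 FPKM in B-1b. The atypical receptors, which bind chemokines without signaling through G proteins, have rows for 2 of the 7 listed. Ackr2 reached at most 2.48 FPKM and Ccrl2 at most 1.18 FPKM in any library, and neither passed the filter.

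Other receptors that guide B cells held the only called gene of these lists. Of 13 tested, limma called 1, S1pr1, higher in B-1b (0.159% of all genes), and 0 lower (0.0397%). At an unadjusted p under 0.05, 2 were higher (5.39% of all genes) and 2 lower (4.27%), and the groups were apart for 4 higher (25.8%) and 3 lower (17.3%). S1pr1 encodes the receptor for sphingosine-1-phosphate, by which lymphocytes leave tissues for blood and lymph. It rose from 29.6 and 24.4 FPKM in B-1a to 283.7 and 280.6 FPKM in B-1b, with its log2 fold change at 3.34 (standard error 0.17, adjusted p = 0.0354 from limma). Like every call over all genes, this one was lost with the replicate number as a block and in a linear model per gene, where 0 genes were called. It was also lost with any 1 library left out, where 1 group has a single library and only the other gives a spread between libraries.
Adora2a, an adenosine receptor, was at 27.0 and 23.0 FPKM in B-1a and at 9.15 and 8.48 FPKM in B-1b (fitted log2 fold change -1.40, adjusted p = 0.175 from limma). Cnr2, the cannabinoid receptor of B cells, was at 42.1 and 41.3 FPKM in B-1a and at 21.3 and 21.2 FPKM in B-1b (fitted log2 fold change -0.94, adjusted p = 0.223 from limma). Gpr34, a lysophosphatidylserine receptor, was at 0.924 and 0.562 FPKM in B-1a and at 4.996 and 3.43 FPKM in B-1b (fitted log2 fold change 1.57, adjusted p = 0.319 from limma). The groups were apart for all 3, which were chosen by their p, with both signs among them. Gpr34 passed the filter only through B-1b. The median of the list was 0.34, and it lay between -0.06 and 0.29 with each library left out.

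Downstream of the receptors, 33 of 43 listed genes of G protein coupling and effectors were tested, 17 with positive and 16 with negative log2 fold changes and a median of 0.01. Limma called 0 of them (0.198% of all genes), with 2 higher (5.39% of all genes) and 3 lower (4.27%) at an unadjusted p under 0.05. The 3 lower had the smallest p of the list and follow below. The 2 higher, named after their values were seen, were Elmo1 (log2 fold change 0.54, adjusted p = 0.454 from limma) and Itpr2 (1.30, adjusted p = 0.504). Itpr2 was at 0.764 and 0.527 FPKM in B-1a and at 4.46 and 1.99 FPKM in B-1b, so it passed the filter only through B-1b. Pik3cd, which encodes the leukocyte phosphoinositide 3-kinase p110 delta, was at 28.5 and 52.4 FPKM in B-1a and at 0.36 FPKM in B-1b replicate 1, and is listed at 0 in B-1b replicate 2. Its log2 fold change, at -5.09 (standard error 0.39, adjusted p = 0.0598 from limma), is the lowest of the 7557 genes, and the table has 1 row for it. Rasgrp2, the exchange factor that activates Rap1 for adhesion, was at 62.1 and 65.01 FPKM in B-1a and at 39.3 and 36.6 FPKM in B-1b (fitted log2 fold change -0.73, adjusted p = 0.272 from limma). Prkcd, a protein kinase C, was at 21.4 and 24.0 FPKM in B-1a and at 14.5 and 10.9 FPKM in B-1b (fitted log2 fold change -0.80, adjusted p = 0.371 from limma). In all 3 genes, which were chosen by their p, both B-1b libraries lay below both B-1a libraries. Of the 33, 8 lay apart in this direction (17.3% of all genes) and 7 in the other (25.8%). Pik3cd passed the filter only through B-1a.
Of 16 genes of receptor desensitization, limma called 0 (0.198% of all genes), with 1 higher (5.39% of all genes) and 1 lower (4.27%) at an unadjusted p under 0.05 and a median of -0.14. Cltc, the clathrin heavy chain used in receptor uptake, was at 97.5 and 99.7 FPKM in B-1a and at 25.2 and 42.6 FPKM in B-1b, with its log2 fold change at -1.56 and an adjusted p of 0.262 from limma. Rgs13 and Rgs18, regulators that end G protein signaling, had log2 fold changes of 1.21 (adjusted p = 0.489 from limma) and 0.65 (adjusted p = 0.539 from limma). Rgs13, the 1 counted as higher, was at 0.201 and 0.339 FPKM in B-1a and at 2.32 and 1.59 FPKM in B-1b. It thus passed the filter only through B-1b.
Of 15 adhesion molecules tested, 11 had positive log2 fold changes (median 0.26), limma called 0, and 3 were higher at an unadjusted p under 0.05, against 56.2% positive, 0.198% called and 5.39% higher at that p among all genes. These were Cd47 (log2 fold change 0.79, adjusted p = 0.419), Itgam (1.07, adjusted p = 0.477) and Itga6 (0.82, adjusted p = 0.479), where Itgam encodes the integrin CD11b, which peritoneal B-1 cells and macrophages share.

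**Figure D5:**
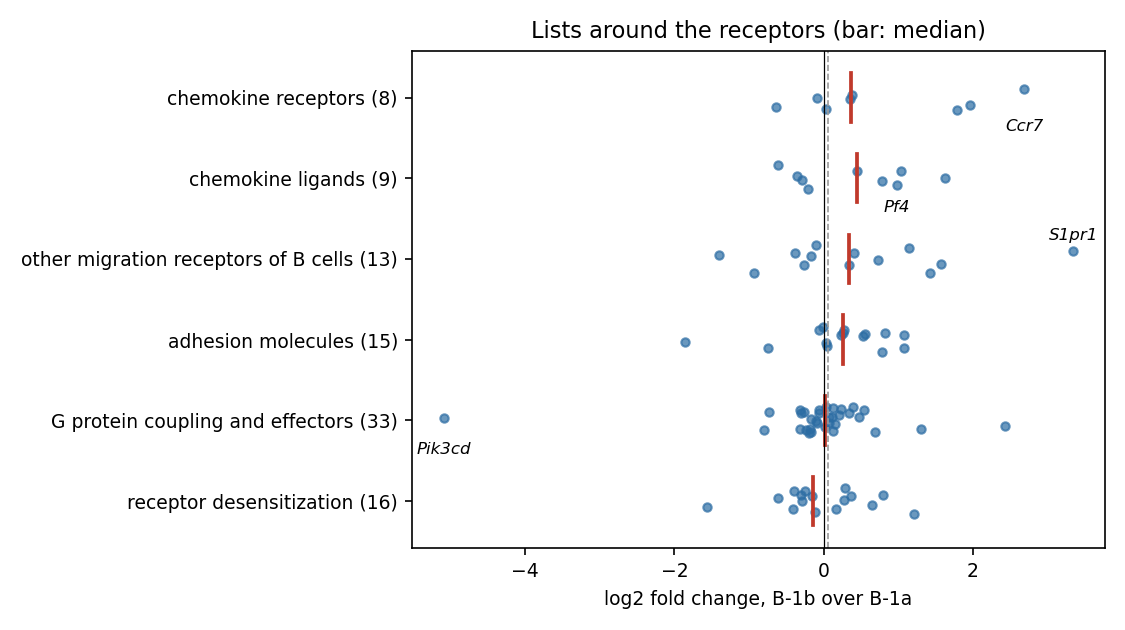
Log2 fold change, B-1b against B-1a, (x axis) for the tested genes of each list (rows, number of genes in brackets), with the median as a bar and the median of all genes tested as a dashed line. S1pr1 is the 1 called gene, Pik3cd lies lowest at -5.09, and the list medians run from -0.14 to 0.44.

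The genes whose values over the 4 libraries followed those of Ccr6 most closely, by the Euclidean distance of centred log2 values, were Ighv1-64 (distance 0.16), 1700030K09Rik (0.17) and Myo5a (0.18). Myo5a, an unconventional myosin motor, was at 0.502 and 0.321 FPKM in B-1a and at 3.72 and 4.61 FPKM in B-1b. Nearest to Ccr7 were Mcrip1 (0.18), Ifnar1 (0.26), a subunit of the type I interferon receptor, and Drg1 (0.46). Among the genes nearest to Cxcr5 were Neil1 (0.02) and Mfap1a (0.04). With 4 libraries such likeness is a description.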

How the data were processed

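Bulk RNA of B-1a and B-1b cells, taken by cell sorting from the peritoneal cavity of C57BL/6 mice, was sequenced. The authors ran their tests in Ballgown. Its input was transcript assembly and levels from StringTie, built on HISAT2 alignments to the mouse build GRCm38/mm10. The deposited values are read as FPKM per transcript row, although the table is named for read counts, which these fractional values are not. Tool versions and the filter on rows: not given in the sources used here. There were 0 further columns of sample values.

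Rows of a name were summed, names were matched to GENCODE M21 symbols (7830 of 7834) and log2(FPKM + 1) was fitted with limma 3.58.1 (R 4.3.3, trended prior, Benjamini-Hochberg over all genes), B-1b over B-1a, on 4 libraries. With 2 libraries per group, the smallest two-sided p of an exact permutation test is 0.333, so none was used. The step was tested on simulated data. Other work was done in Python 3.11.15 with pandas 2.3.3.

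The genes, lists and rules were chosen with earlier results of these data known. The genes named were all receptor genes, from each list the called genes and the 3 with the smallest p, and the 3 nearest profiles of Ccr6, Ccr7 and Cxcr5. Some genes that the rule names are not reported here. Receptor ligands and cell type markers stand beside the receptor they bear on. Promoter motifs were chosen with the windows in view. Alternatives covered the pseudocount, filters, a linear model per gene, the replicate block, each library left out, the use of replicates 3, upper-quartile scaling and single rows.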

Additional observations from a re-analysis of the deposited data

How the results depend on the processing

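The number of genes called by limma over all genes, 15 in the values reported, was 8 with no filter on low values, 6 with transcript rows kept apart, 0 in a linear model per gene, 0 with the replicate number as a block and 1241 with all 6 columns as deposited. Every call was also lost with each library left out, where a group is left with a single library. The number of receptor genes called, 0 as reported, was 3 with all 6 columns, against 1241 of 7674 genes. In that setting the related columns count as libraries. There the log2 fold changes were 1.75 for Ccr1 (adjusted p = 0.0261), 1.95 for Ccr6 (adjusted p = 0.000381) and 2.79 for Ccr7 (adjusted p = 0.000524). In the other settings their adjusted p-values from limma stayed above 0.05. The number of receptor genes at an unadjusted p under 0.05, 3 as reported, was 4 with all 6 columns, against 2575 of 7674 genes. With at least 10 FPKM required in 2 libraries, it was 2 of the 4 tested, Ccr6 not among them, against 500 of 4671 genes. In a linear model per gene it was 2, against 657 of 7557 genes. It stayed at 3 in the other settings with no library left out.

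Cxcr3 turned to -0.0162 under equal upper quartiles and to -0.0498 with all 6 columns, and ran from -0.19 to 0.24 with each library left out. Cxcr4 ran from -0.33 to 1.04 and Cxcr5 from -0.20 to 0.0283 in the same way. At least 10 FPKM left 6 chemokine ligands with a median of -0.25 and 6 other migration receptors with a median of -0.32. The median of the latter ran from -0.0629 to 0.29 with each library left out.

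Nothing in the labels says whether same-numbered libraries share more than a number. Their deviations had a Pearson's r of 0.00124 across 7557 genes, which are not independent replicates. With the replicate block, the adjusted p from limma was 0.168 for Ccr7, 0.401 for Ccr6 and 0.495 for Ccr1. The cause of these shifts was not tested. Depth is unknown, so no counting error can be given for low genes such as Ccr9 and Cxcr6.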
